A study of Homo sapiens with 3 samples.

Results

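The genes of the mitochondrial ribosomal proteins were taken as all rows of the deposited expression table whose symbol starts with MRPL or MRPS followed by a digit, with pseudogenes left out. The rule found 77 of 19049 genes. Of these, 76 encode proteins, 47 with the prefix MRPL for the large subunit and 29 with the prefix MRPS for the small subunit. The remaining row is MRPL23-AS1, an antisense RNA, and 3 further rows were pseudogenes. The rule reads names and not any measured value, but the set was chosen with earlier results of these data known.

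Mitochondria keep their own ribosome, which descends from that of bacteria and translates the few messages of mitochondrial DNA into subunits of the respiratory chain and ATP synthase. Every protein of that ribosome is encoded in the nucleus, translated in the cytosol and imported. Many of these proteins have a bacterial counterpart and others were added in the mitochondrial lineage.

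RNA was sequenced from MDA-MB-231, an established human breast cancer cell line that lacks the estrogen receptor. In all groups the cells were depleted of KAP1, the corepressor encoded by TRIM28, with a short hairpin RNA, and all were cultured in DMEM with serum. They re-expressed wild-type KAP1 (wt), KAP1 in which a serine was replaced by alanine (S473A), which cannot be phosphorylated, or by aspartate (S473D), whose charge resembles that of a phosphoserine. Each form gave 1 library, so no comparison has a replicate, differences describe a pair of libraries, and no p-value can be given. Whether a line was a clone or a pool, and how much of the cells' own KAP1 was left, is not given in the labels.

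Expression was measured as RPKM, read numbers scaled to gene length and library depth. The table gives no read numbers, and the depths estimated from the steps between low values ranged from 24000000 reads in S473D to 29500000 in S473A, with 25800000 in wt. TRIM28 stood at 28.7, 32.3 and 25.6 RPKM in wt, S473A and S473D, which sums hairpin-depleted and re-expressed transcripts and so does not check the substitutions. Markers of basal breast cancer cells were high in each library: VIM lay between 673 and 740 RPKM, and CD44, AXL, CAV1 and MSN between 87.9 and 190 RPKM. ESR1, PGR and CDH1, markers of luminal epithelial cells, were at most 0.240 RPKM, while GATA3, another luminal marker, lay between 1.45 and 1.83 RPKM. The fibroblast gene COL1A1 lay between 1.63 and 1.66 RPKM, and PTPRC and PECAM1, markers of blood and endothelial cells, at most 0.132 RPKM.

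Mitochondrial ribosomal protein transcripts were higher in the S473D library than in the wt library and differed little between S473A and wt. Summed over the 76 protein genes, they came to 3051 RPKM in wt, 3099 RPKM in S473A and 4487 RPKM in S473D, which is 0.923%, 0.936% and 1.14% of the summed RPKM of all genes. The median gene had 35.7, 36.0 and 50.5 RPKM in these libraries, and the median of the ratios of S473D to wt was 1.47. In bulk RNA, a change in the cells that make up a culture and a change in RNA per cell cannot be told apart.

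All 76 protein genes passed the filter of a mean of at least 1 RPKM that left 11578 genes to compare, while MRPL23-AS1, at 0.387, 0.321 and 0.0875 RPKM in wt, S473A and S473D, did not. Differences were taken on log2(RPKM + 1), a scale that understates those of low genes. The median difference of S473D from wt was 0.54 over the 76 genes, with quartiles of 0.32 and 0.71, against -0.10 over all 11578 genes. Of the 76 genes, 71 were above 0, against 39.3% of all genes, and 73 were above the median of all genes. At least 1.5-fold higher were 30 of 76, against 6.82% of all genes, and 0 were at least 1.5-fold lower, against 3.23%. Only MRPS23 was at least 2-fold higher on this scale, where 0.993% of all genes were, and none was 2-fold lower, where 0.0950% were. Most members lay in between: 41 were above 0 and under 1.5-fold. The 1.5-fold line, at 0.58 (log2), had MRPS22 just inside at 0.59 and MRPS28 just outside at 0.58. S473D held the highest of the 3 values for 70 genes and the lowest for 4. How often it did so over all genes was not counted.

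Counting error was small beside these differences. From the estimated depths and the shortest transcript of each gene, the members had 136 to 10028 reads per library, and a 95% interval for the ratio of S473D to wt lay wholly above 1 for 67 of 76 genes, where 25.0% of all genes with a transcript did. It lay wholly below 1 for MRPS25, MRPL2 and MRPS27, where 42.3% of all genes did, and held 1 for the remaining 6. These intervals cover counting error only, not the spread between cultures, and rest on estimated depths.

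**Figure D1:**
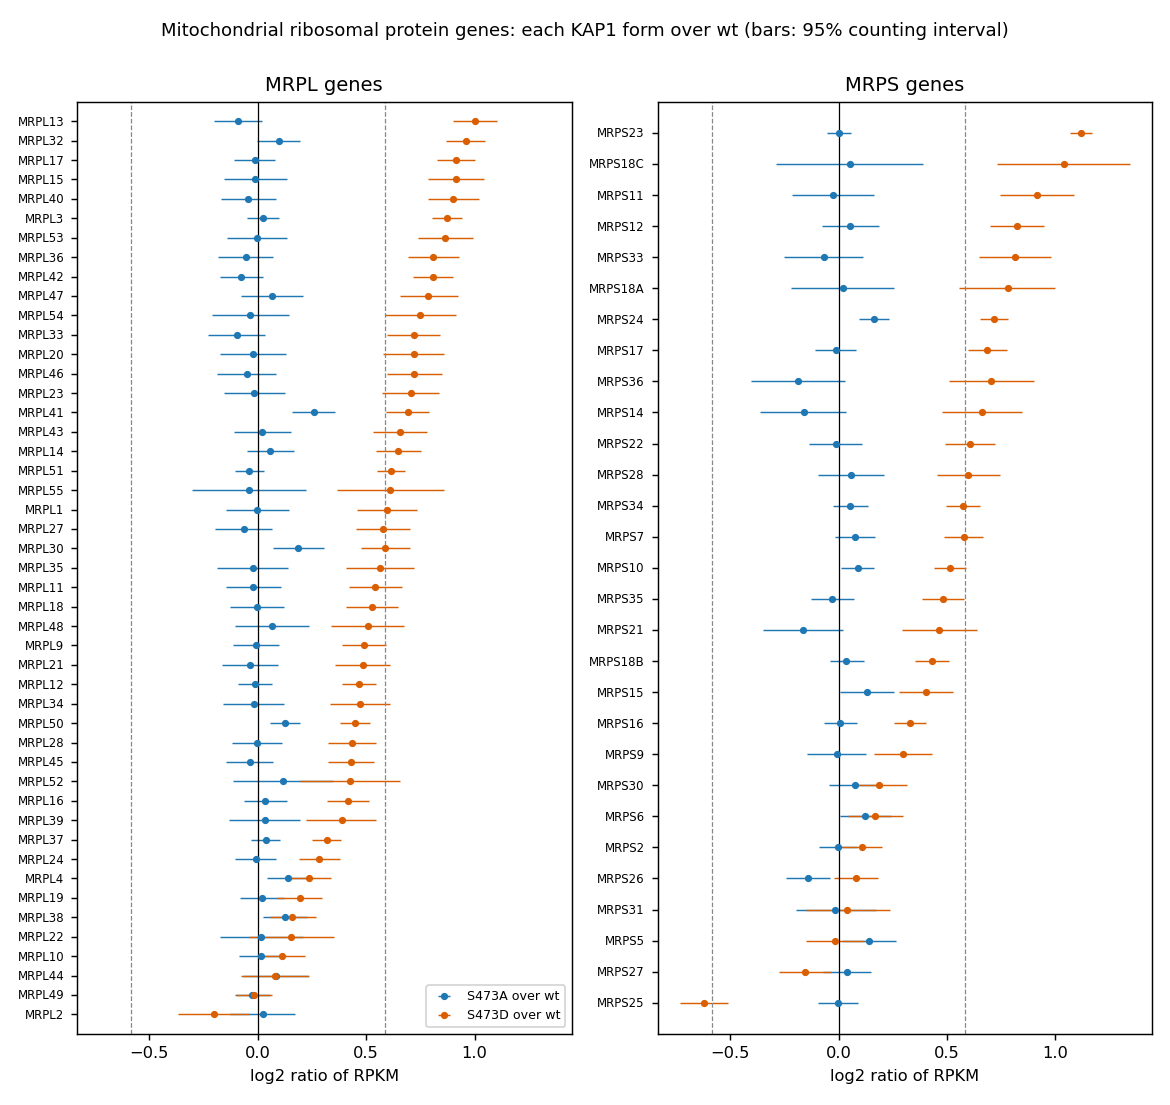
Ratio of RPKM for each of the 76 protein genes, S473D over wt in orange and S473A over wt in blue, on a log2 axis in separate panels for MRPL and MRPS genes; lines are 95% counting intervals and dashed lines mark 1.5-fold. The orange points lie above 0 for 71 genes, while the blue points stay close to 0.

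The upstream sequences of 4 members are shown because they are the gene with the highest difference (MRPS23), the gene with the lowest (MRPS25), and 2 genes higher in S473D whose windows hold matches to motifs tied to mitochondrial genes (MRPL17 and MRPL47). Each gives the 100 bases before the RefSeq start in build GRCh38.p14, 5′ to 3′ on the gene's strand, which is the minus strand in all 4 cases. Capitals mark matches, on either strand, to CCGGAAG (the ETS family core bound by GABP), AAGATGGC (YY1) or, for NRF1, GCGC followed by any base and TGCGC. GABP, YY1 and NRF1 are activators known for binding upstream of nuclear genes for mitochondrial proteins.
MRPS23, chr17:57850045-57850144: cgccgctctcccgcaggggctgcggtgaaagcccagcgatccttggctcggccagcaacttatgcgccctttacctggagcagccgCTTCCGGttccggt
MRPL17, chr11:6683341-6683440: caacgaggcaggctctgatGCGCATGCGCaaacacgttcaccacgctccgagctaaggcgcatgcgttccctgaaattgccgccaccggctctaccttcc
MRPL47, chr3:179604639-179604738: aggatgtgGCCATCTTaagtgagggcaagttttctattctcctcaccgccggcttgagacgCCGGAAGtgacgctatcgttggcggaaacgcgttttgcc
MRPS25, chr3:15065316-15065415: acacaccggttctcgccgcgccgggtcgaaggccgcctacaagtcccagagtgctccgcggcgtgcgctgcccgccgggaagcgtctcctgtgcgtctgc
MRPS23 has an ETS core close to the start, MRPL17 an NRF1 match, and MRPL47 both a YY1 and an ETS match. The bases shown for MRPS25 hold none of the 3. Among other members with high differences, MRPS18C, MRPL32 and MRPS11 also hold none in the same 100 bases, and MRPL40 and MRPL3 hold an ETS match. MRPS26 and MRPS31, with differences of 0.08 and 0.04, each hold an ETS match.

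Over the RefSeq promoter windows, which run from 250 bases before the start to 50 after it, 68 of the 76 members had an entry. The ETS core occurred in 28 of 68 (41.2%), against 10.7% of all 27305 windows and 20.4% of those of tested genes. AAGATGGC occurred in 20 of 68 (29.4%), against 3.03% of all windows and 6.01% of those of tested genes. The NRF1 letters occurred in 7 (10.3%), against 6.28% and 12.6%. At least 1 of the 3 motifs was present in 43 members (63.2%), against 17.9% of all windows and 34.0% of those of tested genes. CCAAT, read by NF-Y, was in 20 members (29.4%), against 35.7% of all windows and 37.7% of those of tested genes. TATAAA was in 3 members (4.41%), against 12% and 4.99%, so its share was close to that of tested genes. The windows of members had a median GC content of 60.2%, against 58.3% for all windows and 65.3% for tested genes. The median difference of S473D from wt was 0.60 in members with the ETS core and 0.46 in those without it. Over tested genes with and without it the medians were -0.02 and -0.12. With the YY1 letters the members' median was 0.59 and without them 0.50, and over tested genes -0.09 and -0.10. For NRF1 the members' medians were 0.64 and 0.50, for CCAAT 0.48 and 0.55, and for TATAAA 0.65 and 0.52. With length and GC trends removed, they were 0.20 and 0.11 (ETS), 0.19 and 0.12 (YY1) and 0.23 and 0.14 (NRF1). For CCAAT they were then 0.13 and 0.15, and for TATAAA -0.02 and 0.14. No such relation was tested. A match describes letters in a window and shows no binding.

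Among the large-subunit genes with the highest differences of S473D from wt, MRPL13 stood at 44.6, 41.9 and 89.3 RPKM in wt, S473A and S473D, a ratio of S473D to wt of 2.0 (95% counting interval 1.87 to 2.15). MRPL32 stood at 57.3, 61.2 and 111 RPKM, a ratio of 1.94 (1.83 to 2.07). MRPL32 protein is a substrate of the mitochondrial m-AAA protease, which must trim it before it can join the ribosome. MRPL17 was at 33.2, 32.9 and 62.5 RPKM, and MRPL15 at 25.2, 25.1 and 47.6 RPKM, ratios of 1.89 (1.78 to 2.0) and 1.88 (1.72 to 2.06). MRPL3, mutated in a form of mitochondrial cardiomyopathy, was at 62.6, 63.7 and 115 RPKM, a ratio of 1.83 (1.75 to 1.92). MRPL53 was at 27.0, 26.9 and 49.1 RPKM, a ratio of 1.82 (1.67 to 1.99). In each of these genes wt and S473A lay close together and S473D was apart above them. By mean level over the 3 libraries the highest large-subunit gene was MRPL51, at 106, 103 and 162 RPKM, followed by MRPL33, at 87.7, 82.0 and 144 RPKM.

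Among small-subunit genes, MRPS23 had the highest difference of all members, with 34.2, 34.3 and 74.3 RPKM in wt, S473A and S473D and a ratio of 2.17 (2.10 to 2.25), an interval that rests on a transcript of 5621 bases. MRPS18C had 15.0, 15.6 and 30.8 RPKM, a ratio of 2.05 (1.66 to 2.54). MRPS11 had 22.3, 21.9 and 42.2 RPKM, a ratio of 1.89 (1.68 to 2.13). The wt and S473A values of these 3 genes were nearly equal. The member with the highest level was MRPS24, at 172, 192 and 282 RPKM, where S473A also lay above wt. MRPS34, needed for the stability of the small ribosomal RNA, was at 86.5, 89.8 and 129 RPKM. MRPS14 was at 7.62, 6.81 and 12.1 RPKM, and with MRPL22 it was among the members with the lowest levels. MRPS36 was at 10.6, 9.37 and 17.3 RPKM. Its protein is now assigned to the 2-oxoglutarate dehydrogenase complex of the citric acid cycle rather than to the ribosome.

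**Figure D2:**
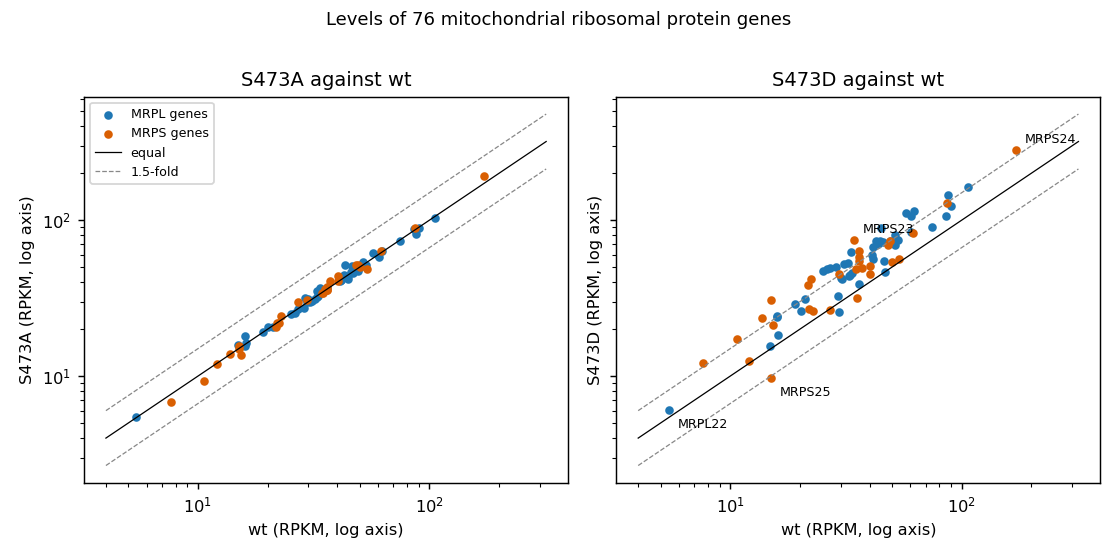
RPKM in wt (x) against RPKM in S473A and in S473D (y) for the 76 protein genes, both on log axes, with the diagonal of equal levels. The S473A points follow the diagonal, and most S473D points lie above it.

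The order of the levels was much the same in the 3 libraries. Spearman's rho of the levels over the 76 genes, given as a description of genes that share a library, was 0.99 between S473A and wt and 0.92 between S473D and wt. The MRPL genes had a median of 41.0, 40.5 and 54.4 RPKM in wt, S473A and S473D, and the MRPS genes 34.8, 34.3 and 45.1 RPKM. The difference of S473D from wt had a median of 0.54 in MRPL genes, with 19 of 47 at least 1.5-fold higher, and of 0.50 in MRPS genes, with 11 of 29. Placing MRPS30 and MRPS18A in the large subunit, where their proteins sit, and leaving out MRPS36 gave medians of 0.54 for 49 large-subunit genes and 0.49 for 26 small-subunit genes. Members with a bacterial counterpart had a median of 0.54, with 18 of 47 at least 1.5-fold higher, and those without one a median of 0.48, with 11 of 28, MRPS36 being left out of both. Over all genes the median was -0.10, and 6.82% were at least 1.5-fold higher. The elevation in S473D was present in both subunits and in both evolutionary classes, and no difference between them was tested.

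The genes of structural regions spread over most of the range. In the stalk, which recruits translation factors, MRPL10 was at 36.2, 36.6 and 39.1 RPKM in wt, S473A and S473D, MRPL11 at 41.0, 40.5 and 59.7 RPKM, and MRPL12, which also binds the mitochondrial RNA polymerase, at 90.0, 89.2 and 124 RPKM. Their ratios of S473D to wt were 1.08, 1.46 and 1.38. MRPL10 and MRPL12, which bind each other in the stalk, had counting intervals of 1.0 to 1.16 and 1.31 to 1.46 that do not overlap. These intervals cover counting error only. With the trends on length and GC content removed, the differences of S473D from wt of MRPL10 and MRPL12 were -0.03 and 0.14. Whether these genes differ from one another was not tested.

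Around the exit tunnel, through which the new chain leaves, MRPL22 was at 5.41, 5.47 and 6.02 RPKM, the lowest level of any member, and its ratio of S473D to wt of 1.11 had an interval that held 1 (0.972 to 1.27). MRPL23 was at 41.6, 41.1 and 67.8 RPKM (ratio 1.63) and MRPL24 at 74.4, 73.9 and 90.6 RPKM (ratio 1.22). MRPL45, which helps anchor the ribosome at the inner membrane, was at 32.8, 32.0 and 44.3 RPKM (ratio 1.35). MRPL47 was at 42.6, 44.5 and 73.5 RPKM (ratio 1.73). All 5 were thus highest in S473D, and 2 of them were at least 1.5-fold higher than in wt, where 6.82% of all genes were.

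In the central protuberance, which touches the small subunit, MRPL18 was at 49.95, 49.8 and 71.9 RPKM, MRPL27 at 49.1, 46.9 and 73.2 RPKM, and MRPL48 at 29.98, 31.4 and 42.6 RPKM. MRPL40 was at 26.2, 25.4 and 48.9 RPKM, and its ratio of S473D to wt of 1.87 was the highest of the 6 genes of this region. MRPL46 was at 32.2, 31.1 and 53.1 RPKM. MRPL38 was the lowest of the 6, at 29.1, 31.7 and 32.5 RPKM, a ratio of 1.12 (1.04 to 1.20).

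The MRPS18 proteins are 3 paralogues of a single bacterial small-subunit protein, and they differ in place: MRPS18A lies in the large subunit and the other 2 in the small subunit. MRPS18A was at 13.7, 13.9 and 23.5 RPKM, MRPS18B at 61.8, 63.4 and 83.3 RPKM and MRPS18C at 15.0, 15.6 and 30.8 RPKM. The ratios of S473D to wt were 1.72 (1.47 to 2.0), 1.35 (1.28 to 1.42) and 2.05 (1.66 to 2.54), so that MRPS18B, the most abundant of the 3, had the smallest ratio.

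Not all members were higher in S473D. MRPS25, a small-subunit protein added in the mitochondrial lineage, stood at 15.0, 15.0 and 9.75 RPKM in wt, S473A and S473D, a ratio of S473D to wt of 0.651 (0.603 to 0.702). On the log2(RPKM + 1) scale its difference was -0.57, just short of 1.5-fold, and it was the lowest of the 76. MRPL2 was at 29.6, 30.1 and 25.7 RPKM, a ratio of 0.869 (0.775 to 0.973). MRPS27, a protein with pentatricopeptide repeats that binds mitochondrial RNA, was at 35.3, 36.3 and 31.7 RPKM, a ratio of 0.899 (0.827 to 0.976). MRPL49 was at 46.8, 46.0 and 46.3 RPKM and MRPS5 at 27.0, 29.8 and 26.7 RPKM. Both of these had a difference from wt of -0.02, which turns to 0.08 when all genes are centred on their median. MRPS31 was at 12.1, 11.95 and 12.4 RPKM, MRPL44 at 14.8, 15.7 and 15.7 RPKM and MRPS26 at 53.6, 48.6 and 56.7 RPKM, and their intervals for S473D over wt held 1.

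Proteins of the mitochondrial ribosome whose genes carry other symbols were read from the same table. DAP3, a GTP-binding protein of the small subunit, was at 55.7, 57.2 and 77.3 RPKM in wt, S473A and S473D, a ratio of S473D to wt of 1.39 (1.31 to 1.47). CHCHD1 was at 40.5, 39.4 and 67.4 RPKM and AURKAIP1 at 70.4, 73.7 and 111 RPKM, ratios of 1.66 (1.53 to 1.81) and 1.58 (1.47 to 1.69). Of the large subunit, GADD45GIP1 was at 103, 111 and 207 RPKM, a ratio of 2.0 (1.93 to 2.08), MRP63 at 17.7, 18.3 and 27.7 RPKM, and ICT1, a peptidyl-tRNA hydrolase built into the ribosome, at 24.0, 22 and 31.8 RPKM. PTCD3, another pentatricopeptide repeat protein of the small subunit, was the exception among the 7, at 18.5, 18.5 and 17.7 RPKM, a ratio of 0.957 (0.910 to 1.01). The median difference of the 7 was 0.61, against -0.10 over all genes, and 4 were at least 1.5-fold higher, where 6.82% of all genes were. With the trends on length and GC content removed, the 5 with a transcript had a median of 0.27, against -0.10 for all genes. Of these 5, 1 was then at least 1.5-fold higher, where 1.72% of all genes were.

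Genes that assemble or serve the mitochondrial ribosome had smaller median differences and longer transcripts than the members. Of 20 assembly factors, 0 were at least 1.5-fold higher in S473D than in wt, and their median difference was 0.06. MTERFD1, which takes part in assembly of the large subunit, had the highest difference in that list, with 11.3, 10.3 and 15.5 RPKM, and the methyltransferase MRM1 the lowest, with 5.88, 5.68 and 4.61 RPKM. Of 16 translation factors and mRNA-binding proteins, 1 was at least 1.5-fold higher and the median was 0.24. That gene was SLIRP, which protects mitochondrial mRNAs in a complex with LRPPRC, at 101, 110 and 249 RPKM, while LRPPRC was at 37.8, 37.9 and 39.0 RPKM and the elongation factor TUFM at 106, 108 and 101 RPKM. The lowest of the list was C12orf65, a ribosome rescue factor, at 20.8, 19.9 and 19.1 RPKM. Of 20 mitochondrial aminoacyl-tRNA synthetases, 1 was at least 1.5-fold higher and the median was 0.07. The highest was FARS2, at 4.91, 4.72 and 8.01 RPKM, and the lowest LARS2, at 10.7, 10.2 and 7.45 RPKM. Over the 56 genes of these 3 lists the median was 0.10, against -0.10 over all genes. Of the 56, 37 (66.1%) were above 0, where 39.3% of all genes were, and 44 were above the median of all genes. At least 1.5-fold higher were 2 (3.57%), against 6.82% of all genes. Median transcript lengths in these lists were 2047 bases for assembly factors, 2188.5 for translation factors and 2811 for synthetases, against 1430.5 for the members. With the trends on length and GC content removed, the medians of these lists were -0.07, 0.04 and 0.04, against 0.14 for the members and -0.10 for all genes. Then 0 of their genes with a transcript were at least 1.5-fold higher, where 1.72% of all genes were, SLIRP being at 0.47 and FARS2 at 0.48.

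**Figure D3:**
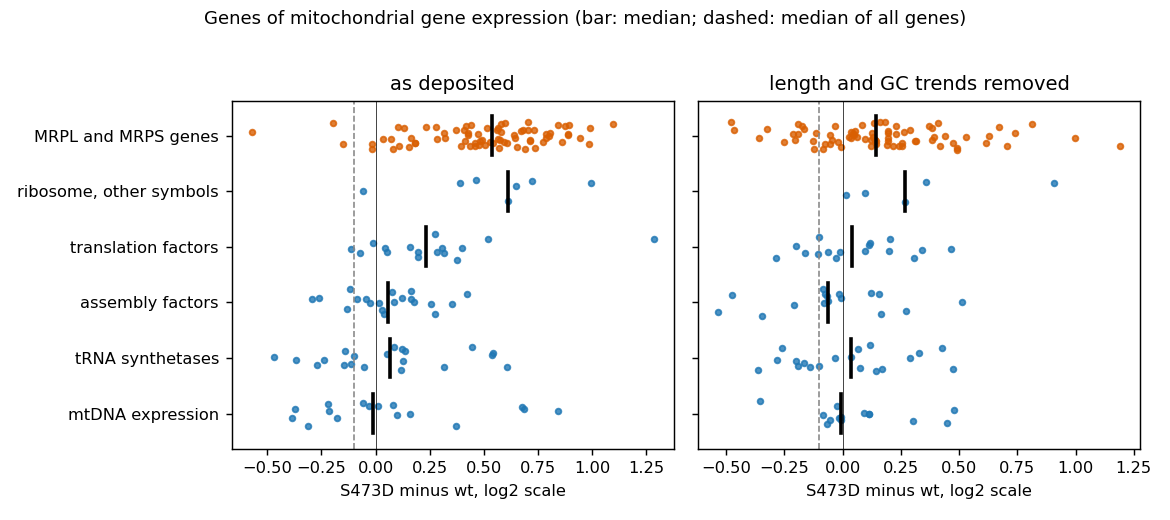
Difference of S473D from wt in log2(RPKM + 1) for each gene of 6 lists, as deposited and with the trends on length and on GC content taken out; bars are list medians and the dashed line is the median of all genes. The median of the mitochondrial ribosomal protein genes is 0.54 as deposited and 0.14 with the trends removed.

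Other abundant short transcripts were also higher in S473D. The 79 cytosolic ribosomal protein genes had a median difference of S473D from wt of 0.81, with 56 at least 1.5-fold higher, and made up 13.8%, 13.8% and 19.9% of the summed RPKM in wt, S473A and S473D. The 76 tested genes of the nuclear-encoded respiratory chain and ATP synthase had a median of 0.66, with 44 at least 1.5-fold higher. Over all genes the median was -0.10, and 6.82% were at least 1.5-fold higher. With the trends on length and GC content removed, the medians were 0.33, with 15 of 79, and 0.22, with 8 of the 61 that had a transcript. Over all genes with a transcript the median was then -0.10, with 1.72% at least 1.5-fold higher. RPKM is a share of a library, so these sums bear on the level of every other gene.

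Transcript length and GC content moved with the difference of S473D from wt. The members' longest RefSeq-linked transcripts in GENCODE had a median length of 1430.5 bases (518 to 15582), against 3239 bases for all genes, and a median GC content of 49.6%, against 48.4%. Over all genes, Spearman's rho of the difference with length was -0.44 and with GC content -0.26, and over the members -0.21 and -0.12, given as descriptions. For transcripts under 1500 bases, 42 of 42 members were above 0, their median was 0.58 and 20 were at least 1.5-fold higher. The 1399 genes of that class had a median of 0.33, with 1067 (76.3%) above 0 and 390 (27.9%) at least 1.5-fold higher. For transcripts of 1500 bases or more, the 34 members had a median of 0.43, with 29 above 0 and 10 at least 1.5-fold higher. The 9388 genes of that class had a median of -0.14, with 3137 (33.4%) above 0 and 323 (3.44%) at least 1.5-fold higher. In both classes the members' median difference was above that of all genes. Median lengths were 1080.5 bases for members and 1088 for all genes in the shorter class. In the longer class they were 1928.5 and 3615 bases, so that class does not match the members' length.

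After smooth trends on length and GC content were removed, the members' median difference was 0.14, against -0.10 for all genes, 54 of 76 were above 0, against 34.5% of all genes, and 62 were above the median of all genes. At least 1.5-fold higher were 8, against 1.72%. With the shortest transcript in place of the longest, the median was 0.28, against -0.10 for all genes, and 12 were at least 1.5-fold higher, against 2.37%. The 5 genes past 1.5-fold as deposited and with either transcript were MRPS23, MRPS11, MRPL17, MRPL40 and MRPL41, with differences of 1.19, 0.997, 0.71, 0.67 and 0.62 after removal by the longest. For MRPS23, MRPL17, MRPL40 and MRPL41 the longest and shortest transcripts have the same length. Only for MRPS11 (3644 and 766 bases) did the choice of transcript change the length. MRPS25 stayed the lowest but for MRPS31, at -0.47 against -0.48. How far length and GC content account for the members' difference was not tested, and the authors' own gene lengths are unknown here.

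**Figure D4:**
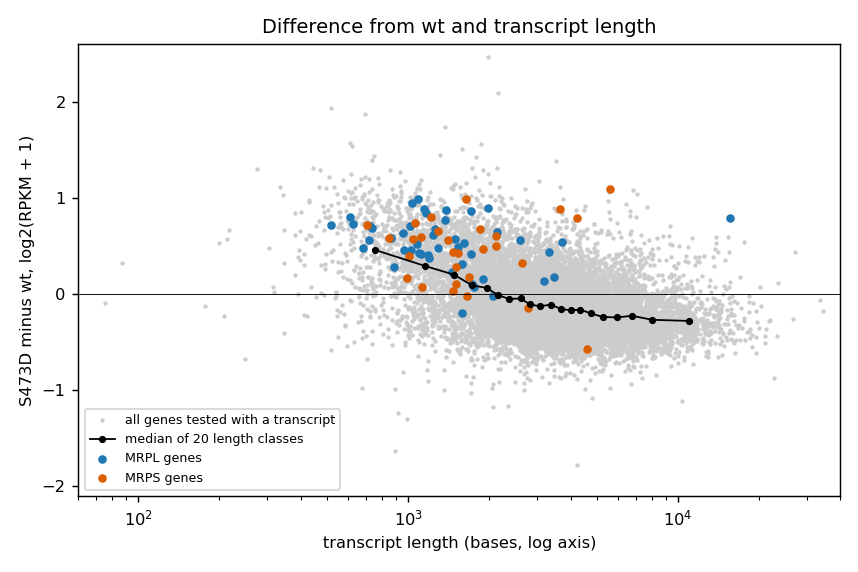
Difference of S473D from wt in log2(RPKM + 1) against the length of the longest transcript in bases on a log axis, for all genes in grey and the 76 protein genes in colour; black points are medians of 20 classes of all genes by length. The medians are highest for short transcripts, and the members lie mostly above them.

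S473A and wt differed little. The members' median difference was -0.00, and 36 of 76 were above 0, against 49.8% of all genes. None was at least 1.5-fold higher or lower, where 0.0950% and 0.147% of all genes were, and 62 lay within 0.1 of 0. The counting interval of the ratio of S473A to wt lay above 1 for 10 members, where 5.55% of all genes did, and below 1 for 1, where 5.60% did. MRPL41 had the highest difference, at 43.4, 51.9 and 70.1 RPKM in wt, S473A and S473D, with a ratio of S473A to wt of 1.20 (1.12 to 1.28). MRPL30 followed at 15.9, 18.1 and 24.0 RPKM, a ratio of 1.14 (1.05 to 1.23), then MRPS24 with a ratio of 1.12 (1.07 to 1.17) and MRPS5 with 1.10 (1.01 to 1.20). MRPL41, MRPL30 and MRPS24 were thus lowest in wt and highest in S473D, whereas MRPS5 was highest in S473A.

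The lowest differences of S473A from wt were those of MRPS36, MRPS21, MRPS14 and MRPS26. MRPS21 was at 15.3, 13.7 and 21.2 RPKM in wt, S473A and S473D. The ratios of S473A to wt of the first 3 genes, 0.880, 0.893 and 0.894, had counting intervals that held 1. Only that of MRPS26, 0.906 (0.845 to 0.972), lay below 1.

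Between S473D and S473A, the members' median difference was 0.51, 71 of 76 were above 0, where 39.3% of all genes were, and 30 were at least 1.5-fold higher, where 6.86% were. The highest were MRPS23 and MRPL13, at 1.10 and 1.07 (log2), and MRPS25 was lowest at -0.57. With the trends on length and GC content removed, the median was 0.12 and 7 were at least 1.5-fold higher, where 1.64% of all genes were. The comparisons of S473D with wt and with S473A share the S473D library, and those of S473A and S473D with wt share the wt library, so they are not independent.

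Some member genes start close to another gene on the opposite strand. With starts within 1000 bases in the RefSeq annotation, 18 members had such a partner, 15 of which were tested genes outside the set. The median difference of S473D from wt was 0.57 over 17 members of these pairs, which count both MRPL46 and MRPS11. It was 0.08 over the 15 partners, against -0.10 over all genes. Of these partners, 3 were at least 1.5-fold higher and 1 lower, where 6.82% and 3.23% of all genes were. MRPL32 and PSMA2, a proteasome subunit gene at 77.2, 80.5 and 172 RPKM in wt, S473A and S473D, were both higher in S473D, with differences of 0.95 and 1.15. MRPL30 and MITD1 also were, at 0.56 and 0.81. MRPL46 and MRPS11, a pair of members that share a start region, had 0.70 and 0.89. With the trends on length and GC content removed, the differences were 0.39 and 0.64 for MRPL32 and PSMA2. They were 0.38 and 0.06 for MRPL30 and MITD1, and 0.29 and 0.997 for MRPL46 and MRPS11.

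In other pairs the difference of S473D from wt was far apart. MRPL51 had a difference of 0.61, and NCAPD2, a condensin gene at 56.7, 56.5 and 35.2 RPKM, had -0.67. MRPL40 had 0.88, and HIRA, a histone chaperone gene, -0.47. MRPL49 had -0.02 and FAU, which encodes a cytosolic ribosomal protein at 347, 347 and 604 RPKM, had 0.80. With the trends on length and GC content removed, MRPL51 and NCAPD2 were at 0.23 and -0.40. MRPL40 and HIRA were then at 0.67 and -0.25, and MRPL49 and FAU at -0.08 and 0.36. The median transcript length of the 17 tested partners, the pair of members included, was 2499 bases, against 1430.5 bases for all members. No source used here says whether the counting used the strand, so reads of overlapping ends cannot be assigned with certainty.

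**Figure D5:**
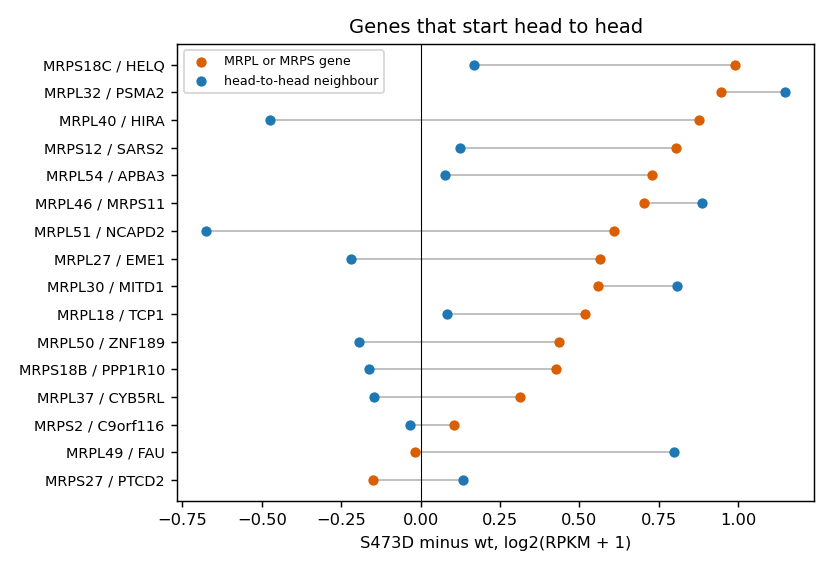
Difference of S473D from wt in log2(RPKM + 1) for 16 pairs of a member and the gene that starts on the opposite strand within 1000 bases, joined by a line. The member is the higher of the pair except for MRPL49, MRPL32, MRPL30, MRPS27 and MRPL46, whose partners FAU, PSMA2, MITD1, PTCD2 and MRPS11 lie above them.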

How the data were processed

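RNA was isolated with TRIzol and libraries followed Illumina protocols, per the labels' protocols. Reads were aligned with Bowtie and processed in Partek on hg19, per the submitters' processing notes; no source used here gives versions, annotation, strand or counting rule. The values deposited by the authors are log2 RPKM with 0.1 added, as its lowest value of -3.32 shows. RPKM was recovered by undoing both. Of 19076 rows, 27 with date-like or repeated symbols were left out, and 170 short RNAs were left out of the comparisons. No column of samples was left unmapped.

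Differences were taken on log2(RPKM + 1) for genes whose mean reached 1 RPKM. With 1 library per group there is no test, so genes were counted by folds of 1.5 and 2. Depths were estimated from low values, 31.0% to 34.4% of which were whole reads within 0.02 reads, so no count model was fitted. Exact 95% intervals of ratios (conditional binomial) used the shortest RefSeq-linked transcript of GENCODE 29 and cover counting error only. GENCODE names a processed or other pseudogene for 33 of 76 members, 8 for MRPS21 and 5 for MRPS36, and reads shared with such copies make their values uncertain. Trends were removed by lowess (fraction 0.2, 2 rounds) in the 10787 genes with a transcript. The calculation was run on simulated data with known depths and a linear trend on length. Those data held no trend on GC content and did not check the estimated depths or the choice of transcript. Promoters came from RefSeq GRCh38.p14. Python 3.11.15, numpy 2.4.6, pandas 2.3.3, scipy 1.17.1 and statsmodels 0.14.6 were used.

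Members and gene lists (structural regions, proteins under other symbols, assembly, translation, synthetases, mitochondrial DNA expression) were chosen with earlier results of these data known. Named with their values were the 10 highest and 8 lowest members for S473D minus wt, the 4 highest and 4 lowest for S473A minus wt (both at a mean of at least 5 RPKM), members past 2-fold, the 3 highest and 2 lowest by level in each subunit, all members of the structural regions, ribosomal proteins under other symbols, and the extremes of each companion list. Further genes were named after their values were seen: the markers, LRPPRC, TUFM, MRPS22, MRPS28 and the head-to-head partners.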

Additional observations from a re-analysis of the deposited data

How the results depend on the processing

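No paired analysis was possible because each group has 1 library, and for the same reason no replicate could be left out. The 126 differences of named members moved by less than their counting error with pseudocounts of 0.1 or 0.5, no filter, a minimum mean of 5 RPKM, or short RNAs kept. With pseudocounts of 0.1 and 0.5, 1 member, MRPS25, was at least 1.5-fold lower in S473D than in wt and 1 than in S473A. Centring on the median of all genes gave a median difference of 0.64 and 42 members at least 1.5-fold higher in S473D than in wt, where 9.54% of all genes were, and trimmed mean scaling 0.64 and 44, where 9.66% were. Removing trends on length and GC content gave 0.14 and 8 against wt, where 1.72% of all genes were at least 1.5-fold higher. Against S473A it gave 0.12 and 7, where 1.64% were. An alternative chosen after seeing the data was the same removal with the shortest transcript. It gave 0.28 and 12 against wt, where 2.37% of all genes were, and 0.27 and 9 against S473A, where 2.22% were. With the trends removed, the sign changed for 8 of 42 named members in S473D minus wt, 7 in S473D minus S473A and 4 in S473A minus wt. Among those whose counting interval excluded 1, these were MRPL10 (-0.034), MRPL24 (-0.17), MRPL33 (-0.17) and MRPS36 (-0.055) in the first, MRPL24 (-0.19), MRPL33 (-0.10) and MRPS26 (-0.056) in the second, and 0 in the last. With the shortest transcript the sign changed for 4, 2 and 4, of which only MRPL48 in S473D minus S473A (-0.014) had such an interval. The cause was not tested. Depth limits single members little: the median half-width of their counting intervals was 0.12 (log2).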

Other observations

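Genes that copy and transcribe mitochondrial DNA, or that regulate nuclear genes for mitochondrial proteins, were spread around 0. Of 17 such genes, 16 passed the filter on low values, with a median difference of S473D from wt of -0.01, against -0.10 for all genes. Of these, 8 (50%) were above 0, against 39.3% of all genes, and 10 were above the median of all genes. At least 1.5-fold higher were 3 (18.8%), against 6.82% of all genes. Those 3 were TFB2M, a mitochondrial transcription factor, at 10.6, 10.4 and 19.9 RPKM in wt, S473A and S473D, TEFM, the mitochondrial elongation factor, at 11.2, 11.2 and 18.6 RPKM, and SSBP1, the single-strand DNA-binding protein of mitochondria, at 56.0, 54.6 and 90.2 RPKM. With the trends on length and GC content removed, 0 of 14 with a transcript were at least 1.5-fold higher, where 1.72% of all genes were. Their median was then -0.007, against -0.10 for all genes. Of the 14, 6 (42.9%) were above 0, where 34.5% of all genes were, and 13 were above the median of all genes. As deposited, the lowest was PPARGC1B, a coactivator of mitochondrial biogenesis, at 1.69, 1.72 and 1.06 RPKM.

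Of the factors whose motifs were searched, NRF1 was at 5.31, 5.55 and 5.36 RPKM in wt, S473A and S473D. The GABP subunit genes GABPA and GABPB1 were at 7.34, 7.17 and 7.94 RPKM and at 12.2, 12.2 and 16.0 RPKM. YY1 was at 35.5, 36.0 and 30.5 RPKM. GABPB1 was thus the highest in S473D relative to wt among these 4, with a ratio of 1.32 (95% counting interval 1.16 to 1.5), and YY1 the lowest, with 0.857 (0.826 to 0.890). These genes are named after their values were seen, except TFB2M and PPARGC1B, which the naming rule selects.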
